A study of Mus musculus with 10 samples.

Results

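The genes described here follow the glial lineage of the dorsal root ganglion (DRG), from the neural crest cell through the Schwann cell precursor and satellite glial cell to the myelin-forming Schwann cell. There were 30 of them, chosen by name with earlier results of these data known. Each was represented by the probe set that the array's annotation assigns to that gene alone. Where there were several, the one with the highest mean over the 10 arrays was taken. Of the 30, 29 were measured among the 19938 genes tested, and Prx, which encodes periaxin of the Schwann cell, was not analysed here. The 29 were grouped by role and stage into 9 crest and glial transcription factors, 4 genes of neuregulin and endothelin signalling, 7 genes of Schwann precursors and satellite glia, 2 promyelin transcription factors and 7 myelin and glial gap junction genes.

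The study removed LKB1, a kinase encoded by Stk11 that acts upstream of AMPK and related kinases, from the cells that build the DRG, and asked how the sensory lineage fared without it. Lkb1 KO embryos carried floxed Lkb1 and a Wnt1-Cre transgene, which acts in neural crest cells, the source of DRG neurons and glia alike, and also in the midbrain and dorsal neural tube. WT embryos were littermate controls of the same mixed background. DRGs were taken at E13.5 (the age in days of gestation), and 5 Lkb1 KO and 5 WT samples, each a pool of DRGs from 2 embryos, were hybridised to 1 one-colour array each, so that n counts pools. Because Cre acts in the common progenitor, neurons and glia lost the gene together, and cells of other origin in the ganglion, such as vessels, did not carry the deletion by this route.

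Neural crest cells express Sox10 and Foxd3, and those that settle in the ganglion give rise to neurons and glia. Glial fate depends on neuregulin 1 from axons, which binds the paired receptors ErbB3 and ErbB2 on the glial cell, while endothelin acting on its receptor Ednrb slows the step from precursor to immature Schwann cell. Glial cells that enclose neuronal cell bodies become satellite glia, and those along axons become Schwann cells, some of which later pass through a promyelin stage set by Pou3f1 (Oct6) and Egr2 (Krox20) and build myelin. At E13.5 most of the Schwann lineage is still at the precursor stage.

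Values below are log2 expression values from RMA, and a difference is the Lkb1 KO mean minus the WT mean on that scale. Array medians lay between 6.50 and 6.57. Stk11 was at 8.61, 8.61, 8.51, 8.70 and 9.08 in WT replicates 1 to 5 and at 7.68, 7.82, 7.69, 7.77 and 7.94 in Lkb1 KO, a log2 fold change of -0.92 (SE 0.09, n = 5 and 5, adjusted p = 1.15e-04, limma). Whether its probes lie in the floxed exons was not examined, so this checks the labels only as far as they do. All 13 sensory neuron markers lay above the highest array median in all 10 samples, as did 20 of the 29 glial lineage genes, whereas all 10 markers of the spinal cord and oligodendrocyte lineage, including Olig1 and Olig2, lay below the lowest array median in all 10. The glial lineage genes below it throughout were Pax3, S100b, Gfap, Pou3f1 and Gjb1. Gfap and the promyelin factor Pou3f1 thus gave little signal at this age, while Fabp7, a marker of precursors and satellite glia, ran from 13.47 to 13.60. The pools also differed in the sex of their embryos: Y-linked genes averaged 5.02 and 5.21 in Lkb1 KO replicates 2 and 5 and 8.80 to 9.81 in the other 8 samples. Lkb1 KO replicate 3 stood apart in skeletal muscle markers, with a mean of 6.61 against 5.38 to 5.64 in the others, and Lkb1 KO replicate 2 in 4 of 5 noradrenergic genes (given with Tfap2b); without either of these samples the 5 calls reported next were made again.

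Most of the glial programme did not pass the test between Lkb1 KO and WT, and a small set did. With a gene called at an adjusted p under 0.05 (limma, Benjamini-Hochberg over all 19938 genes), 4 of the 29 rose (Plekhb1, Apod, Mag and Sox8), 1 fell (Nrg1) and 24 were not called. The rises were 13.8% of the members against 2.49% of all genes called higher, and the fall was 3.45% against 1.38% of all genes called lower. As the members were chosen with earlier results of these data known, these shares describe the list and do not test it. The median log2 fold change of the 29 was 0.073, beside -0.0017 over all genes, and 22 of the 29 differences were above 0. The mean over the 29 genes was 7.88 to 7.94 in WT and 8.01 to 8.09 in Lkb1 KO, so the sample means did not overlap. In whole ganglia, more cells of a type and more RNA per cell cannot be told apart.

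**Figure D1:**
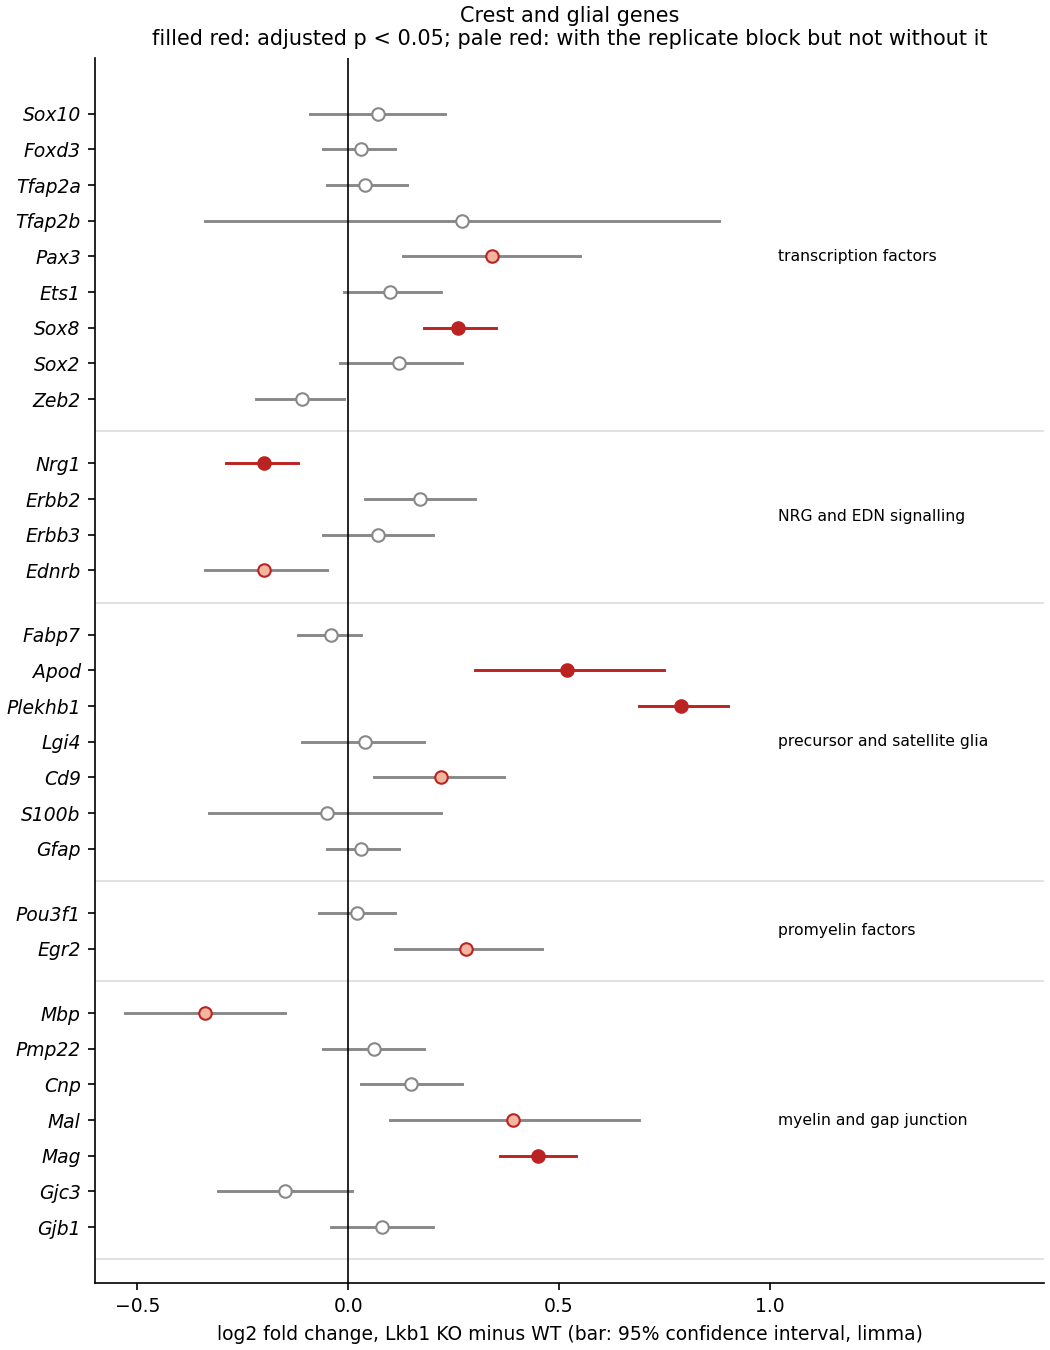
Log2 fold change of the 29 measured crest and glial genes, Lkb1 KO minus WT (x axis), by stage (rows), with bars for the 95% confidence interval from limma over 5 and 5 pools. Plekhb1, Apod, Mag and Sox8 are filled red to the right of 0 and Nrg1 to the left, and 6 genes in pale red passed the threshold with the replicate number as a block and not in the fit of these intervals.

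Plekhb1 showed the largest difference of the 29. It encodes a pleckstrin homology domain protein known from photoreceptors and glia. Its values were 7.49, 7.71, 7.63, 7.75 and 7.70 in WT replicates 1 to 5 and 8.44, 8.44, 8.47, 8.44 and 8.46 in Lkb1 KO. The WT samples spread over 0.26 and the Lkb1 KO samples over 0.03, with no overlap. The log2 fold change was 0.79 (SE 0.05, adjusted p = 1.36e-06, limma), a 1.73-fold higher level, which ranked 8 of all genes by p.

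Mag, the myelin-associated glycoprotein at the face of the myelin sheath that touches the axon, came next by p though not by size, with 7.04, 7.03, 7.05, 6.91 and 7.01 in WT and 7.42, 7.49, 7.53, 7.45 and 7.37 in Lkb1 KO. Every Lkb1 KO sample lay above every WT sample. The log2 fold change was 0.45 (SE 0.04, adjusted p = 8.12e-05, limma), or 1.36-fold. Apod, a secreted lipid-binding lipocalin of Schwann cells and fibroblasts, varied more between pools, with 8.29, 8.19, 8.15, 7.87 and 7.96 in WT and 8.91, 8.47, 8.76, 8.59 and 8.35 in Lkb1 KO. The lowest Lkb1 KO sample was 0.06 above the highest WT sample, and the log2 fold change was 0.52 (SE 0.10, adjusted p = 0.0145, limma). Sox8, a SOXE factor related to Sox10, was at 6.37, 6.46, 6.35, 6.37 and 6.31 in WT and 6.64, 6.69, 6.66, 6.61 and 6.58 in Lkb1 KO. Its groups did not overlap either, and the log2 fold change was 0.26 (SE 0.04, adjusted p = 0.00183, limma).

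Nrg1 was the 1 gene of the set to fall. It encodes neuregulin 1, which DRG neurons display to glia. Its values were 8.17, 8.21, 8.16, 8.19 and 8.15 in WT and 7.99, 7.99, 8.02, 7.86 and 8.00 in Lkb1 KO. All Lkb1 KO samples were below all WT samples, with a log2 fold change of -0.20 (SE 0.04, adjusted p = 0.0103, limma), a level 1.15-fold lower. Which Nrg1 isoforms its probes read was not examined. The groups were fully apart, with Lkb1 KO on top, for 5 of the 29 genes (the 4 that rose and Egr2), against 3.09% of all genes, and with Lkb1 KO beneath for Nrg1 alone, against 2.24% of all genes. Full separation of the groups fixes the exact two-sided permutation p at 0.00794, the smallest that 252 assignments of the samples allow. That value for these 6 genes thus restates the separation and adds no further test.

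The 5 calls were looked at within pools of like sex signal. In the pools with both Xist and Y-linked signal, 2 of each group, the differences were 0.71 for Plekhb1, 0.47 for Mag, 0.72 for Apod, 0.21 for Sox8 and -0.28 for Nrg1. In the pools with Y-linked signal but without Xist, 3 WT and 1 Lkb1 KO, they were 0.86, 0.50, 0.63, 0.32 and -0.14 in the same order. The groups of these 5 genes did not overlap, which fixes the direction within any choice of pools, so the values show sizes only. The pools with low Y-linked signal were in Lkb1 KO only and gave no comparison of their own.

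**Figure D2:**
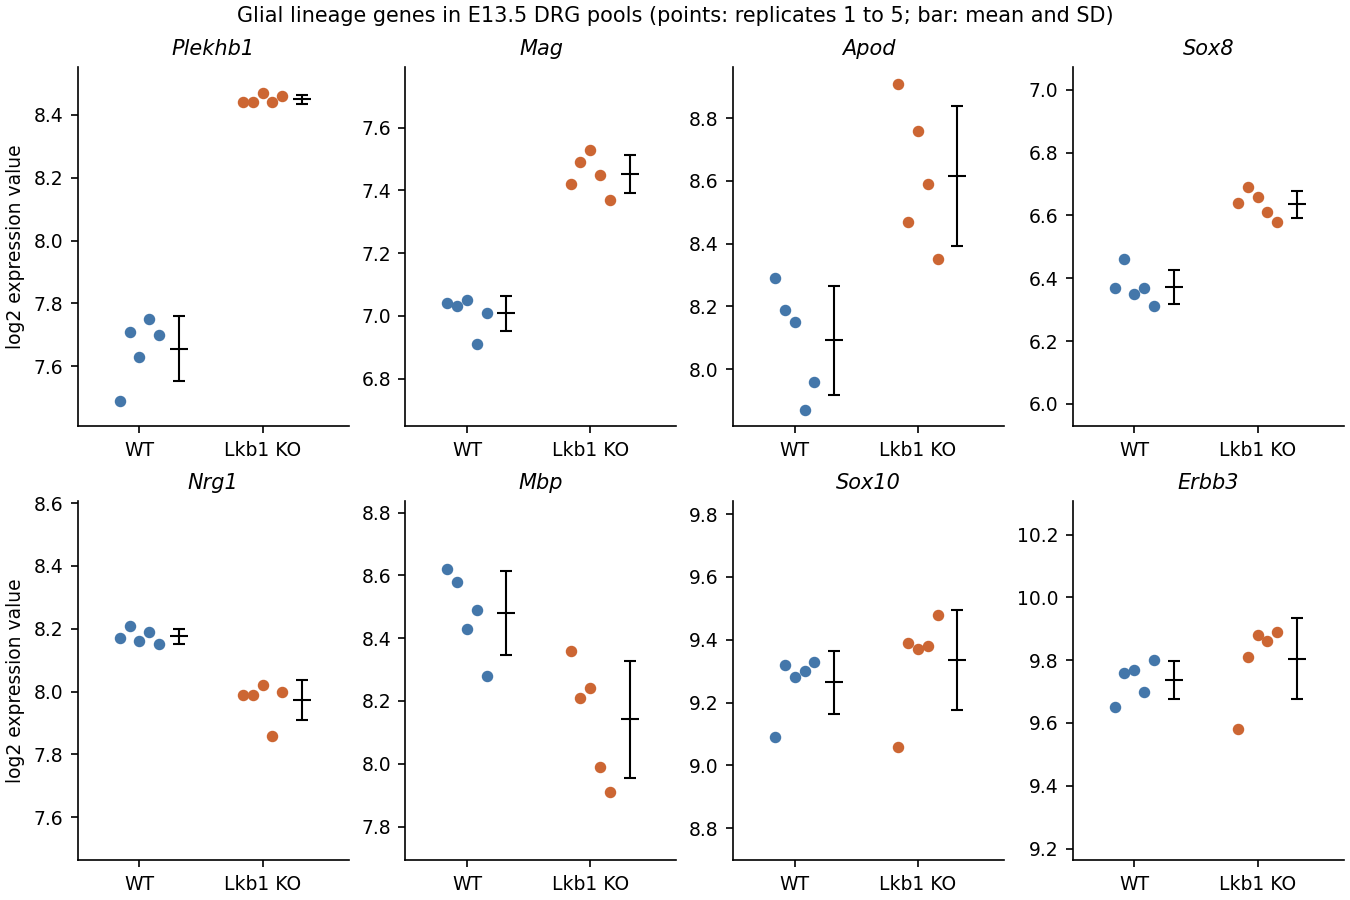
Log2 expression values (y axis, the same span in every panel) of 8 genes in the 5 WT (blue) and 5 Lkb1 KO (orange) pools, with points in order of replicate number from left to right and a bar for the mean and SD. Plekhb1, Mag, Apod and Sox8 separate upwards and Nrg1 downwards, Mbp is lower with a slight overlap, and Sox10 and Erbb3 overlap with replicate 1 lowest in either group.

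Promoter sequence is shown for the 4 genes that rose, which share the direction of the group difference and not a pattern across the pools. The letters searched are those bound by SOX proteins, of which SOX10 is known to drive Schwann cell genes. A part of SOX proteins in these differences was not tested. The windows are from RefSeq (GRCm38.p6), run 5′ to 3′ on the gene's own strand from 250 bases before to 50 bases after an annotated transcription start, and capitals mark matches to the SOX core letters ACAAAG, to the form ACAATG or to the form AACAAT, which can overlap each other, on either strand. Of several annotated starts, a window with a match is shown for Plekhb1 and Mag; the other Plekhb1 window held none.
Plekhb1 (chr7:100656916-100657215, minus strand): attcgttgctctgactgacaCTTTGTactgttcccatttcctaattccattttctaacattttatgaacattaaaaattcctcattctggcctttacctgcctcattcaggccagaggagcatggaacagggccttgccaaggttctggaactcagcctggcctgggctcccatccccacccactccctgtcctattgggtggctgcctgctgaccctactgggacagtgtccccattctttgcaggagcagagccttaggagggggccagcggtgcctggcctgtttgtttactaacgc
Mag (chr7:30914814-30915113, minus strand): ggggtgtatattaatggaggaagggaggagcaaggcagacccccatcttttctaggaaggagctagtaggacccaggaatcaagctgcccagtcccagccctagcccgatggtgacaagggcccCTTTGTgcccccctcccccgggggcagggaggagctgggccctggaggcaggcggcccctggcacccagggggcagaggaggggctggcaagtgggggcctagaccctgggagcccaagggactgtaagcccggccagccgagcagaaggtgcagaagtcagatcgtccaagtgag
Apod (chr16:31314759-31315058, minus strand): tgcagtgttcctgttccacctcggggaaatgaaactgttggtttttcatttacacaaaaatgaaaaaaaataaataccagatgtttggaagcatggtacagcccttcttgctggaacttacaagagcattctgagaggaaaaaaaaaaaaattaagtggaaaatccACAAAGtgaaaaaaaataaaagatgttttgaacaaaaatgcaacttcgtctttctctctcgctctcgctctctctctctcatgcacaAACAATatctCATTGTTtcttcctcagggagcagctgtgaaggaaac
Sox8 (chr17:25570637-25570936, minus strand): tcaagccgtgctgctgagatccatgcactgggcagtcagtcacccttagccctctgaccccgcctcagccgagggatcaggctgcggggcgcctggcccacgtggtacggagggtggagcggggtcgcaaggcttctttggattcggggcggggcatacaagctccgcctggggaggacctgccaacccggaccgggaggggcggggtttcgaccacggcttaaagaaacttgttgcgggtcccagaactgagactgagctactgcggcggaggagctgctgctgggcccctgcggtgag
Mag had 3 windows. The CTTTGT of the Mag sequence, ACAAAG on the other strand, begins 126 bases before its start and reappears 67 bases before the start in a second window that overlaps this one, while the third window held none. The Plekhb1 match begins 230 bases before the start. In Apod one match lies 84 bases before the start and the others between bases 3 and 14 after it, where CATTGT and ATTGTT overlap. Sox8 held no SOX core but an E-box, CACGTG, a sequence found in 7.15% of all windows.

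Across the genes of the set, 21 had a promoter entry. ACAAAG stood in a window of 7 of them (Apod, Cnp, Gjb1, Mag, Plekhb1, Sox2 and Zeb2) and in 18.7% of the 32851 windows of the same length over all genes. The 21 genes had 38 windows, and a gene with several has more places for a match. Counts of genes and shares of windows, here and below, are therefore not like measures. ACAATG, in 12.6% of all windows, and AACAAT, in 10.7%, were each in Apod and Gjb1. The cyclic AMP response element TGACGTCA, in 1.79% of all windows, was in Foxd3, its shorter form TGACG, in 20.8%, was in 7 genes of which none rose or fell, and the EGR site GCGTGGGCG, in 0.612%, was in none. These matches describe the letters of the windows and were not tested against the differences.

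Among the 9 crest and glial transcription factors, Sox8 was the 1 called. Sox10, the factor that marks the lineage from crest to mature glia, was at 9.09, 9.32, 9.28, 9.30 and 9.33 in WT and 9.06, 9.39, 9.37, 9.38 and 9.48 in Lkb1 KO. Replicate 1 was the lowest of each group, and the log2 fold change of 0.07 had a 95% confidence interval of -0.09 to 0.23 (adjusted p = 0.732, limma). Foxd3, which keeps crest cells multipotent, differed by 0.03 (interval -0.06 to 0.11), and Tfap2a, a crest specifier, by 0.04 (-0.05 to 0.14). Ets1, a crest factor also of endothelium, differed by 0.10 and Sox2, held by glial precursors, by 0.12, with intervals that included 0. Zeb2, which Schwann cells need in order to differentiate, differed by -0.11 (interval -0.22 to -0.01, adjusted p = 0.28, limma).

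Tfap2b, a crest factor also of the sympathetic lineage, was decided by 1 sample. It was at 5.44, 5.71, 5.59, 5.60 and 5.58 in WT and at 5.48, 7.19, 5.26, 5.53 and 5.80 in Lkb1 KO, so that replicate 2 stood alone. The log2 fold change was 0.27 (SE 0.28, adjusted p = 0.742, limma) and turned to -0.07 without that sample. In the same sample Dbh, the enzyme that makes noradrenaline, was at 7.83 against 4.79 to 4.91 in the other 9, and the noradrenergic factors Phox2a, Hand2 and Gata3 were at 5.76, 5.48 and 5.52 against at most 4.72, 4.92 and 4.78. Th, the first enzyme of the same pathway, was not raised there, at 10.46 against 10.38 to 11.16 in the others, with the highest value in WT replicate 5. These 5 genes were looked at after the Tfap2b value was seen, and the part of sympathetic tissue in this sample was not tested. Leaving the sample out kept 4 genes higher and 1 lower.

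Pax3, a factor of dorsal crest and of early Schwann precursors, was at 5.65, 5.81, 5.65, 5.61 and 5.78 in WT and 5.93, 6.04, 5.79, 5.99 and 6.44 in Lkb1 KO. The lowest Lkb1 KO value fell just inside the WT range. The log2 fold change of 0.34 (SE 0.10) missed the threshold (adjusted p = 0.0845, limma).

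In the signalling group Nrg1 alone was called, and the 3 receptors on the glial side were not. Erbb3, the neuregulin-binding receptor, was at 9.65, 9.76, 9.77, 9.70 and 9.80 in WT and 9.58, 9.81, 9.88, 9.86 and 9.89 in Lkb1 KO, a log2 fold change of 0.07 (95% interval -0.06 to 0.20, adjusted p = 0.672, limma). Its partner Erbb2, which carries the kinase activity of the pair, differed by 0.17 (SE 0.06, adjusted p = 0.181, limma), with 4 of 5 Lkb1 KO samples above the highest WT value of 7.79 and replicate 1 at 7.70. Ednrb, the endothelin receptor, was at 12.19, 12.32, 12.41, 12.33 and 12.38 in WT and 11.92, 12.13, 12.06, 12.30 and 12.24 in Lkb1 KO. Its log2 fold change was -0.20 (SE 0.07, adjusted p = 0.165, limma), with 3 of 5 Lkb1 KO samples below the lowest WT sample.

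The Schwann precursor and satellite glia group held the largest differences beside genes that were nearly level. Fabp7, the brain fatty acid-binding protein used to mark precursors and satellite glia, ran from 13.53 to 13.60 in WT and from 13.47 to 13.58 in Lkb1 KO, a log2 fold change of -0.04 (interval -0.12 to 0.03). Lgi4, a secreted Schwann cell protein that promotes myelination, differed by 0.04, and Gfap, the filament protein of satellite glia and non-myelinating Schwann cells, by 0.03. S100b, the calcium-binding protein that appears as precursors become immature Schwann cells, was at 6.48, 6.01, 5.96, 6.06 and 5.74 in WT and 6.35, 6.03, 5.97, 5.88 and 5.76 in Lkb1 KO. The spread of S100b between pools, an SD of 0.27 and 0.22, was several times its difference of -0.05. Cd9, a tetraspanin of the Schwann cell surface, differed by 0.22 (SE 0.07, adjusted p = 0.141, limma), with 4 of 5 Lkb1 KO samples above the WT range.

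Of the promyelin factors, Pou3f1 was at 5.04 to 5.20 in WT and 5.03 to 5.17 in Lkb1 KO, a log2 fold change of 0.02 (interval -0.07 to 0.11). Egr2, the zinc-finger factor that turns on myelin genes and is made earlier by boundary cap cells at the nerve roots, was at 6.18, 6.16, 5.89, 6.26 and 6.17 in WT and 6.28, 6.35, 6.28, 6.54 and 6.63 in Lkb1 KO. The groups did not overlap, but the nearest samples were 0.02 apart and the log2 fold change of 0.28 (SE 0.08) was not called (adjusted p = 0.0812, limma).

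The 7 measured myelin and gap junction genes did not move as 1 block. Beside Mag, which rose, Mbp, the basic protein that compacts myelin, was at 8.62, 8.58, 8.43, 8.49 and 8.28 in WT and 8.36, 8.21, 8.24, 7.99 and 7.91 in Lkb1 KO. That is a log2 fold change of -0.34 (SE 0.09, adjusted p = 0.0528, limma), the lowest of the 29, and 4 of 5 Lkb1 KO samples lay below every WT sample. Mal, a proteolipid of the myelin membrane, was at 7.47, 7.13, 6.98, 7.19 and 6.93 in WT and 7.90, 7.43, 7.70, 7.57 and 7.07 in Lkb1 KO. Its log2 fold change of 0.39 (SE 0.14, adjusted p = 0.167, limma) was not called, and its samples overlapped. Pmp22, a membrane protein of peripheral myelin made early in the lineage, differed by 0.06 (SE 0.06) and Cnp, an enzyme of uncompacted myelin, by 0.15 (SE 0.06, adjusted p = 0.182, limma). The gap junction genes Gjc3 and Gjb1, which encode connexins of myelinating glia, differed by -0.15 and 0.08 with intervals that included 0.

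Samples carrying the same replicate number resembled each other in these genes. Replicate 1 was the highest of its group in WT and in Lkb1 KO alike for 5 genes (Apod, S100b, Mbp, Pmp22 and Mal) and the lowest in each for 9, among them Sox10, Erbb3, Ednrb and Fabp7. Replicate 5 was the lowest of each group for 7 (Sox8, Cd9, S100b, Mbp, Pmp22, Cnp and Mal) and the highest for 4 (Sox10, Zeb2, Erbb3 and Fabp7). In the pools of these numbers S100b, Mbp, Pmp22 and Mal were thus at one end of the range of their group, and Sox10, Zeb2, Erbb3 and Fabp7 at the other, whatever the genotype. What a number stands for is not told by the labels.

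Comparing samples of the same number as pairs, with the replicate number as a block in limma, raised the calls to 8 higher and 3 lower of the 29, against 3.59% and 2.83% of all genes. The 5 calls above stayed, and 6 were added, of which Mbp, Mal and Pax3 were also called under some other settings without the block. Pax3 was higher in 5 of 5 pairs, by 0.15 to 0.67 (blocked adjusted p = 0.0163, limma). Egr2 was higher by 0.10 to 0.46 (0.0133), Mal by 0.14 to 0.72 (0.00953) and Cd9 by 0.03 to 0.35 (0.0272), each in 5 of 5 pairs. Mbp was lower in 5 of 5 pairs, by 0.19 to 0.50 (blocked adjusted p = 0.00322, limma), and Ednrb in 5 of 5, by 0.03 to 0.34 (0.0445). In all, 10 of the 29 genes were higher in every pair and 5 were lower in every pair. How many of all genes did so was not counted, so these counts describe the members and show nothing particular to them.

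**Figure D3:**
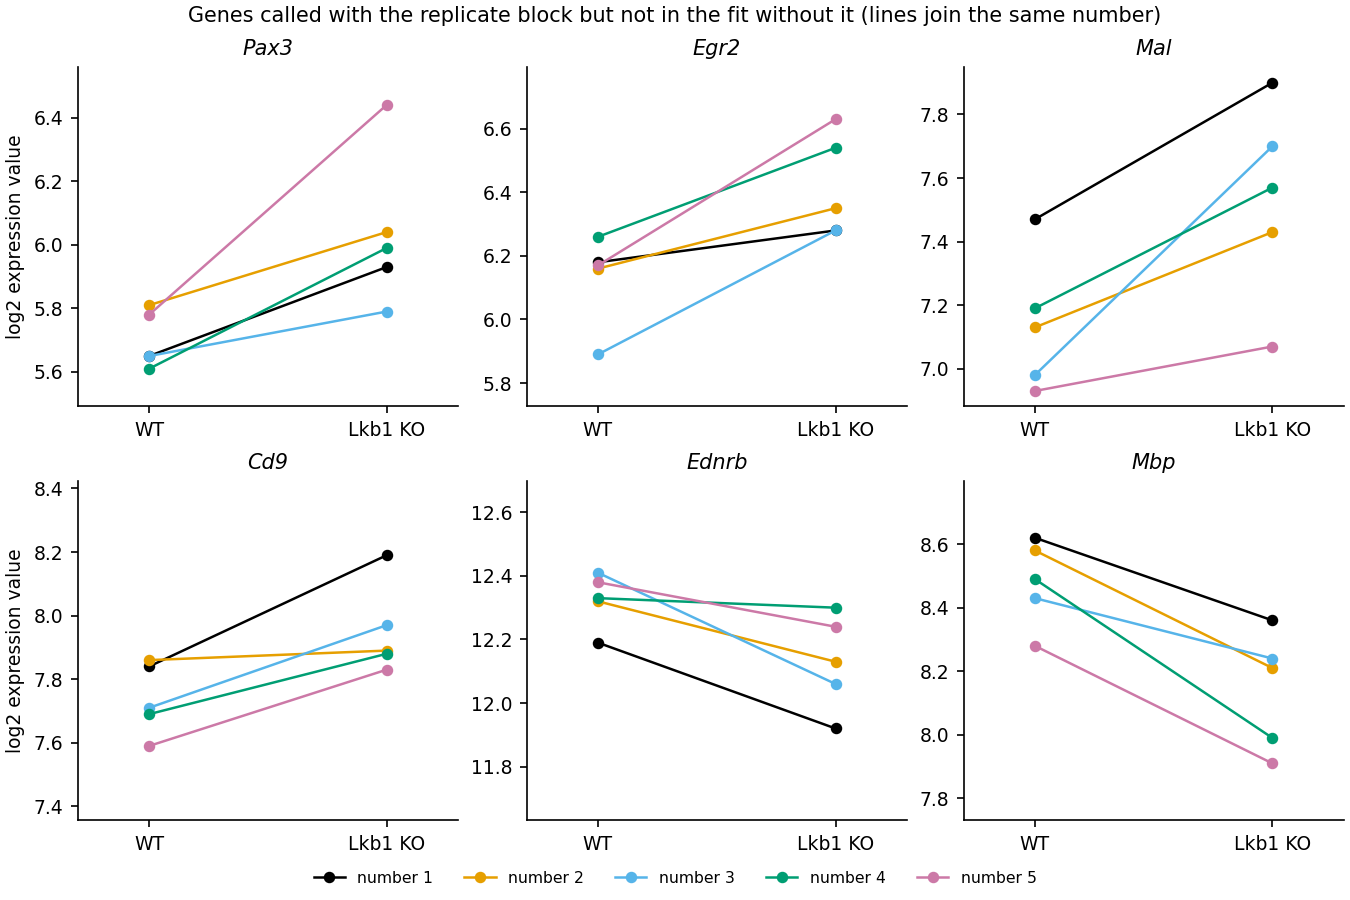
Log2 expression values (y axis, the same span in every panel) of Pax3, Egr2, Mal, Cd9, Ednrb and Mbp, with a line from the WT to the Lkb1 KO pool of the same replicate number in 1 colour. All lines rise for the first 4 genes and fall for Ednrb and Mbp, while the heights differ between numbers, as for Mal with number 1 on top and number 5 at the bottom of each group.

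**Figure D4:**
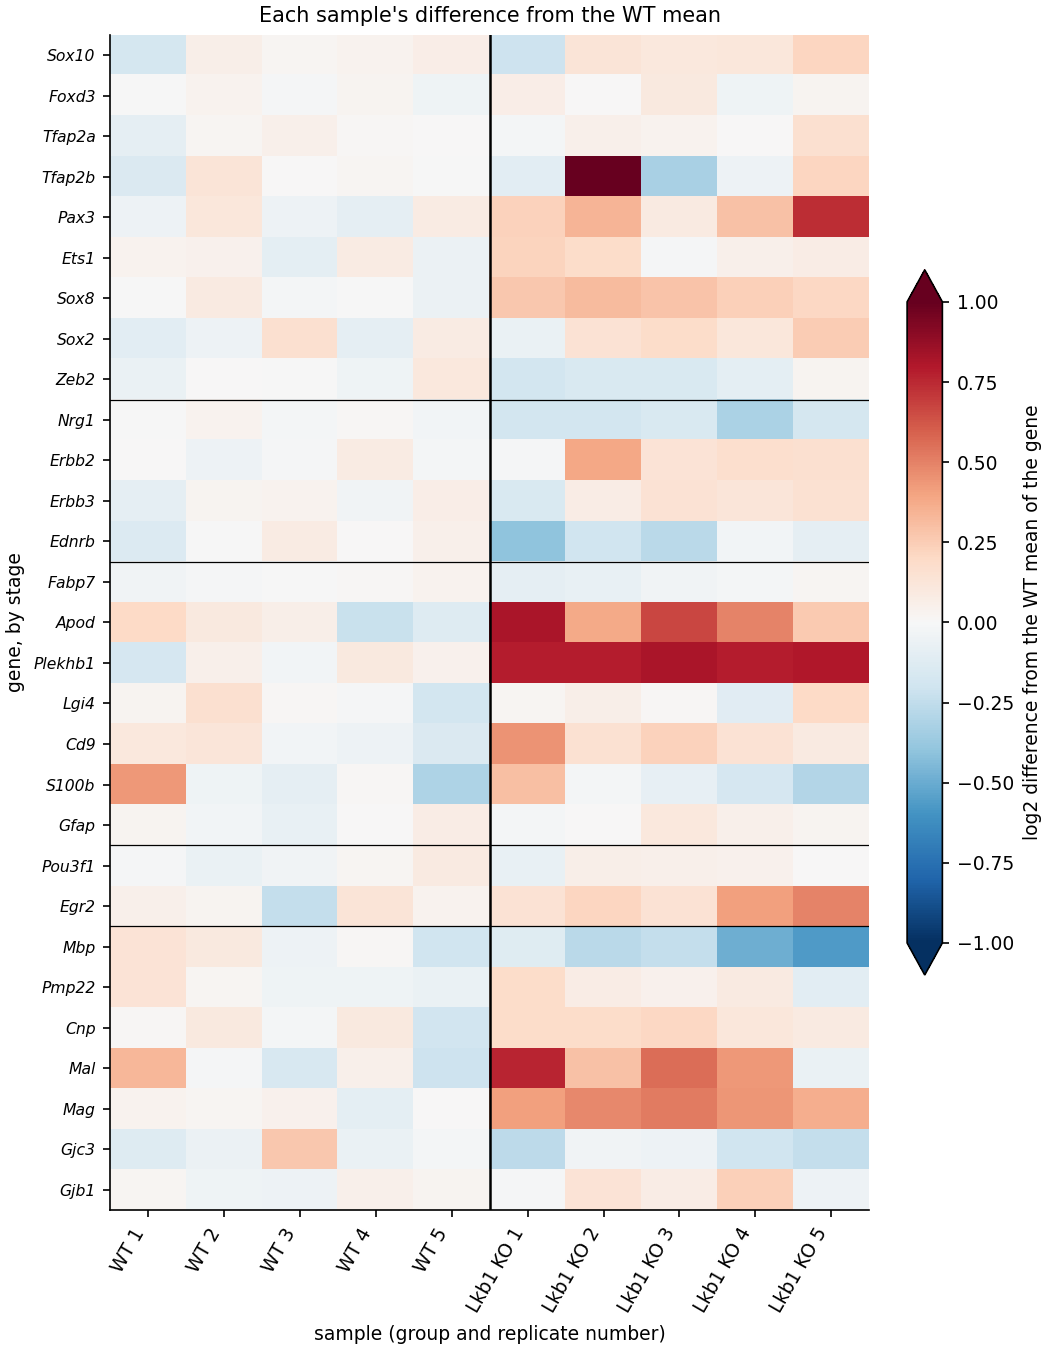
Difference of each sample (columns) from the WT mean of the gene on the log2 scale, red for higher and blue for lower, for the 29 genes (rows) by stage, with the colour scale ending at 1 either way. The rows of Plekhb1, Mag, Apod and Sox8 are red across all 5 Lkb1 KO samples, Nrg1 and Mbp are blue across them, and the cell of Tfap2b in Lkb1 KO replicate 2 goes past the end of the scale.

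The same lineage was also read from genes outside the 30, in lists also chosen with earlier results of these data known. Of 19 further neural crest genes, 3 rose (15.8%, against 2.49% of all genes) and 1 fell (5.26%, against 1.38%). Zic1, a zinc-finger factor of the dorsal neural tube and crest, had a log2 fold change of 0.36 (SE 0.08), Twist1, a factor of migrating and mesenchymal crest, of 0.30 (SE 0.06), and Sox9, an early crest SOXE factor, of 0.25 (SE 0.06), with adjusted p = 0.0326, 0.0109 and 0.0297 (limma). Ngfr, the p75 neurotrophin receptor of crest, glia and neurons, had -0.21 (SE 0.05, adjusted p = 0.023, limma), and its Lkb1 KO samples, at 10.41 to 10.58, were all below the WT samples at 10.62 to 10.79. Twist1 was called whichever single sample was left out. The call was lost for Ngfr when any of WT replicates 1 and 3 and Lkb1 KO replicate 4 was omitted (adjusted p = 0.0513 to 0.0666, limma), for Sox9 when any of WT 1, 2, 4 and 5 and Lkb1 KO 2, 4 and 5 was (0.0527 to 0.0825), and for Zic1 when any of WT 1, 3 and 4 and Lkb1 KO 1, 2 and 5 was (0.0626 to 0.0877). Without Lkb1 KO replicates 2 and 5 together none of the 4 was called (0.0786 to 0.186).

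Of 32 further Schwann and satellite glia genes, 4 rose (12.5%, against 2.49% of all genes) and 1 fell (3.12%, against 1.38%). Dhh, the hedgehog ligand by which Schwann cells signal to the nerve sheath, was at 6.79, 6.82, 6.90, 6.66 and 6.65 in WT and 7.49, 7.41, 7.67, 7.41 and 7.29 in Lkb1 KO, a log2 fold change of 0.69 (SE 0.07, adjusted p = 1.34e-04, limma). Slc1a3, the glial glutamate transporter, had 0.56 (SE 0.08, adjusted p = 0.00157, limma), and Nab2, a cofactor of the EGR proteins, 0.51 (SE 0.08, adjusted p = 0.00205, limma). Ugt8a, which makes the galactolipids of myelin, had 0.34 (SE 0.09, adjusted p = 0.0428, limma), a call lost when any of WT 2 to 5 and Lkb1 KO 2 and 3 was omitted (0.08 to 0.114). In the opposite direction Cdh19, a cadherin of Schwann cell precursors, was at 9.19, 9.15, 9.17, 9.20 and 9.28 in WT and 8.82, 8.60, 8.65, 8.76 and 8.69 in Lkb1 KO. The groups were well apart, with a log2 fold change of -0.50 (SE 0.05, adjusted p = 7.38e-05, limma). With the replicate block 9 genes of this list were higher and 2 lower, against 3.59% and 2.83% of all genes. Those added, named here after their values were seen, included Moxd1, with a log2 fold change of 0.47 (blocked adjusted p = 9.08e-05 against 0.462 without the block, limma), Sostdc1 with 0.41 (0.0018 against 0.125) and Col28a1 with -0.51 (0.00105 against 0.0564).

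Among 20 partners of neuregulin, endothelin and LGI signalling, 2 rose and 1 fell. Erbb4, the neuregulin receptor with its own ligand binding and kinase, was at 6.68, 6.73, 6.71, 6.68 and 6.77 in WT and 7.22, 7.61, 7.41, 7.11 and 7.10 in Lkb1 KO, a log2 fold change of 0.57 (SE 0.09, adjusted p = 0.00214, limma). Egfr, the founding member of this receptor family, had 0.24 (SE 0.04, adjusted p = 0.00758, limma). Adam10, a protease that sheds membrane proteins, had -0.17 (SE 0.04, adjusted p = 0.0214, limma), a call lost when any of WT 1 and 3 and Lkb1 KO 2 was omitted (0.0522 to 0.0541). Adam17, which trims neuregulin, had 0.16 and was not called (adjusted p = 0.0887, limma), though it was without WT replicate 5 (0.0376) and with the replicate block (0.0381).

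Boundary cap cells sit where roots enter the spinal cord and supply some Schwann and satellite cells. Of their 4 genes listed, 3 rose (75.0%, against 2.49% of all genes called higher). Of the 4, Prss56 and Wif1 lay below the lowest array median in all 10 samples. Which cells gave the signal of the genes that rose was not examined, so the share describes the list and not the number of boundary cap cells. Npr3, a natriuretic peptide receptor, had a log2 fold change of 0.51 (SE 0.07), Wif1, a secreted WNT inhibitor, of 0.33 (SE 0.08) and Hey2, a Notch target, of 0.15 (SE 0.04), with adjusted p = 0.00156, 0.0304 and 0.0306 (limma). Prss56 had 0.00. The calls of Wif1 and Hey2 were lost without each of 6 and 8 of the 10 samples, namely WT 2, 3 and 5 and Lkb1 KO 1, 4 and 5 for Wif1 (0.0521 to 0.0795) and any WT sample and Lkb1 KO 1, 2 and 4 for Hey2 (0.0513 to 0.0788). In Npr3 the WT samples ran from 9.39 to 9.73 and the Lkb1 KO samples from 9.95 to 10.27.

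**Figure D5:**
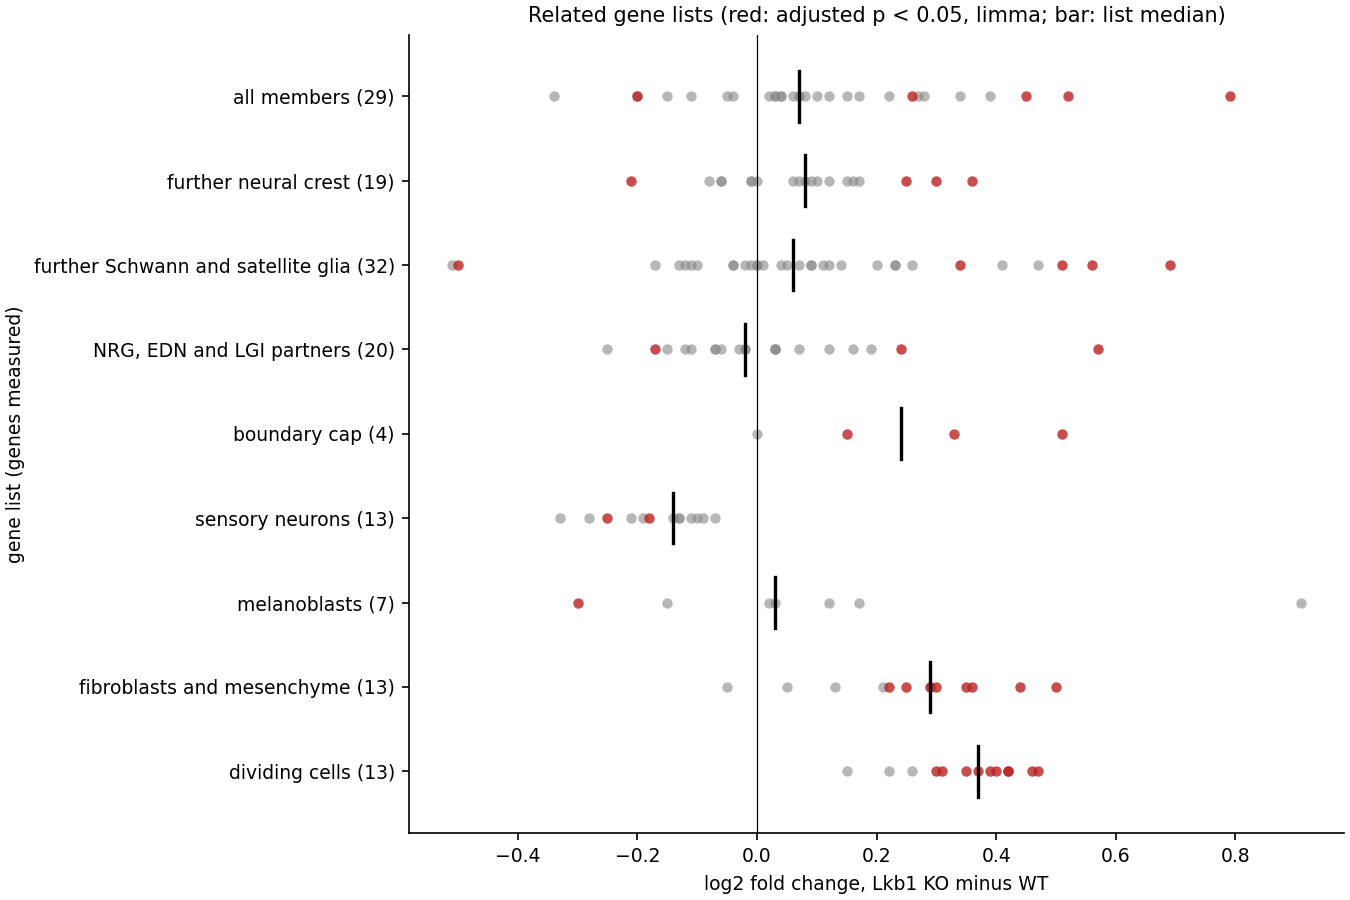
Log2 fold change, Lkb1 KO minus WT (x axis), of every measured gene in the glial set and in 8 other lists (rows, number of genes in brackets), with genes past an adjusted p of 0.05 (limma) in red and a bar at the list's median. The first 4 rows hold red points on either side of 0, the medians of the fibroblast and the dividing cell lists are at 0.29 and 0.37, and all sensory neuron points are below 0.

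Markers of other cells moved between the groups as well, and their counts stand beside 2.49% of all genes called higher and 1.38% called lower. Of 13 markers of dividing cells 10 rose and none fell, and their mean was 8.63 to 8.85 in WT and 8.98 to 9.25 in Lkb1 KO. Of 13 fibroblast and mesenchyme markers 8 rose and none fell, with means of 8.62 to 8.73 against 8.86 to 8.98. Of 13 markers of sensory neurons, the cells that display Nrg1, 2 fell and none rose. Their means were 10.78 to 10.90 against 10.64 to 10.73, with a median log2 fold change of -0.14, beside -0.20 for Nrg1. With the replicate block 5 were lower, against 2.83% of all genes. The ranges of the 2 groups did not overlap in any of these 3 lists, and their part in the glial differences was not tested. Of 7 melanoblast markers, another crest fate, 1 fell (Kit) and none rose. Tyrp1, a pigment enzyme, had the largest difference of that list, 0.91 (SE 0.28, adjusted p = 0.109, limma), at 5.09 to 5.25 in WT and 5.51 to 7.48 in Lkb1 KO without overlap and with replicate 1 on top, and with the replicate block it (0.0432) and Pmel (0.0492) were called higher. Dct, Pmel, Tyr and Mlana were below the lowest array median in all samples. Kit, far brighter, was at 9.95 to 10.23 in WT and 9.64 to 9.98 in Lkb1 KO, and which cells gave its signal was not examined. The spinal cord and oligodendrocyte markers, relevant since Mag, Mbp, Plekhb1 and Sox8 are also genes of oligodendrocytes, were at mean levels of 4.88 to 4.95 in WT and 4.90 to 5.06 in Lkb1 KO, with Pax6 as the 1 called.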

How the data were processed

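Biotin-labelled cDNA from 250 ng of total RNA of each of 10 DRG pools at E13.5 was hybridised to Affymetrix Mouse Gene 1.0 ST arrays. The authors deposited log2 values of 35556 probe sets, made with RMA and Partek 6.6 according to the submitters' processing notes; the methods name MATLAB, and no genome build for the probe sets is given in the sources used here. RMA brings all arrays to 1 distribution, so that a shift common to most genes is removed. The 5 arrays per group limit the precision.

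Of these, 21789 probe sets had a single gene in the platform annotation; 1621 with several and 12146 without one were left out. Of the probe sets with 1 gene, 21698 matched RefSeq (GRCm38.p6). The brightest probe set per gene left 19938 genes. Groups came from the sample labels. The test was two-sided with limma (lmFit, eBayes; version 3.58.1, R 4.3.3), without covariate or filter on dim genes and with Benjamini-Hochberg adjustment over all genes; single values were also given an exact permutation test. Genes named were the members, Stk11, and in each further list the called genes, filled up to 4 by the smallest p. The members and all lists were chosen with earlier results of these data known. Replicates are called biological in the labels.

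Same-numbered WT and Lkb1 KO samples deviated together from their group means (correlations across genes of 0.21 to 0.479, against -0.482 to 0.306 for different numbers). These ranges overlap. The main fit was unpaired, and same-numbered samples were treated as pairs only in the alternative with the replicate block. This pairing rests on the values, not on the labels. No 2 arrays were alike (SD of log2 differences within a group 0.12 to 0.198). Alternatives were other scalings, variance models, tests, probe set rules, a filter, the block, a Y-linked covariate and each sample left out; leaving out Lkb1 KO replicates 2 and 5 together was chosen after seeing the data. Tested on simulated data of 19938 genes for this comparison, the fit recovered 97 of 100 genes changed by 0.5 and 100 of 100 changed by 1, and called 13 unchanged genes. The simulated samples were drawn independently, without likeness between same-numbered samples. No change below 0.5 was simulated, so recovery of smaller differences, such as those of Mag, Sox8 and Nrg1, was not examined. Promoters were searched with Python 3.11.15 and pandas 2.3.3.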

Additional observations from a re-analysis of the deposited data

Results flagged for a closer look

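Of 94 groups of 5 values of the named genes, 9 held a sample whose gap to its nearest neighbour took up most of the group's range, where chance gives about 5% of groups. Sox10 was lowest in WT replicate 1 at 9.09 (the others at 9.28 to 9.33) and in Lkb1 KO replicate 1 at 9.06 (9.37 to 9.48), and Erbb3 in Lkb1 KO replicate 1 at 9.58 (9.81 to 9.89). Tfap2b was highest in Lkb1 KO replicate 2 at 7.19, the sample in which Dbh was raised and Th was not, and at 5.26 to 5.80 in the other Lkb1 KO samples. Nrg1 was lowest in Lkb1 KO replicate 4 at 7.86 (7.99 to 8.02). WT replicate 3 was apart from its group in 3 genes, with Egr2 at 5.89 (6.16 to 6.26) and Slc1a3 at 7.74 (8.02 to 8.10) lowest and Gjc3 at 7.50 (7.10 to 7.21) highest. Mag was lowest in WT replicate 4 at 6.91 (7.01 to 7.05).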

How the results depend on the processing

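Across 21 alternatives, Plekhb1, Mag, Sox8 and Nrg1 were called in every one. Apod missed the threshold with the one-way analysis of variance (adjusted p = 0.0927) and with all probe sets (0.0544), and its adjusted p ran from 0.00114 to 0.0927. The number of members higher was 3 to 5 except with the replicate block, where it was 8. The number lower was 2 instead of 1, by the addition of Mbp, with cyclic loess, the intensity trend, array weights and the filter on the dimmest 30%, 3 with the replicate block, and 1 to 2 over the leave-one-out fits (2 without WT replicate 5 or without Lkb1 KO replicate 1). The median log2 fold change of the members ran from 0.059 to 0.1 over the leave-one-out fits, the highest without Lkb1 KO replicate 1. Mal was also called with the Y-linked covariate (adjusted p = 0.0449) and without Lkb1 KO replicate 5 (0.031), and Pax3 without Lkb1 KO replicate 3 (0.0425). Of the other named genes, Twist1, Ngfr, Sox9, Zic1, Ugt8a, Adam10, Wif1 and Hey2 lost their call with the Y-linked covariate (adjusted p = 0.077 to 0.204); the same genes other than Adam10 and Hey2 lost it with the analysis of variance (0.0569 to 0.151), and those other than Twist1 and Adam10 with all probe sets (0.061 to 0.117), while Wif1 lost it with array weights (0.0592). With the replicate block the calls of the further neural crest list went from 3 to 4 higher, of the pathway partners from 2 to 3 higher and 1 to 2 lower, and of the boundary cap list stayed at 3 higher. Of all genes, 3.59% were called higher and 2.83% lower with the block, against 2.49% and 1.38% without it. The replicate block ended no call of a named gene. No member changed sign under another scaling, and the median of all genes moved by at most 0.01.

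Small differences changed sign. Tfap2b was -0.247 with the Y-linked covariate, -0.163 without Lkb1 KO replicates 2 and 5, and -0.067 to 0.42 leaving out single samples. Lgi4 was -0.04, -0.026 and -0.009 to 0.075 in the same order, and S100b was 0.012, 0.014 and -0.14 to 0.053. Prss56 was -0.006 with cyclic loess and with array weights, -0.025 with the covariate, -0.018 without those replicates, and -0.017 to 0.041 leaving out single samples. The cause was not tested.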
